A study of Homo sapiens with 12 samples.

Results

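Untreated NFKB1 S80A cells were compared with untreated wild type (WT) cells, with 3 samples of each, to describe how the edited cells differed before any TNFα was added. The comparison used 6 of the 12 samples of the series, and its members were all 14383 genes of the 33093 in the count table that passed a filter on low counts. Both groups were HEK293T cells, a human embryonic kidney line that carries adenoviral genes and the SV40 large T antigen. WT cells carried unedited NFKB1. In S80A cells the codon for serine 80 of NFKB1 had been changed to alanine with Cas9, a guide RNA and a single-stranded oligonucleotide template. According to the study's methods, edited cells were brought to single cells by serial dilution. The S80A samples are treated here as a single edited line. Whether WT cells passed through the same selection and dilution is not given in the sources used here. The other 6 samples were cells of both genotypes given 10 ng/ml TNFα for 3 h. RNA was selected by its poly(A) tail and prepared with a stranded kit, and 75 bp single-end reads were counted per gene. The edit and the passage through a single cell cannot be told apart here, since each S80A sample carries both. The study calls its samples independently generated. Where replicates shared a culture or line, p-values measure only the spread between these samples.

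NFKB1 encodes p105, a precursor whose N-terminal part is released as p50. NF-κB subunits pair through their Rel homology region and bind κB sites in DNA, and IκB proteins hold such dimers in the cytoplasm. TNFα acts through its receptor and the IKK kinases, which mark IκBα for degradation and free the dimers. The p50 subunit has no transactivation domain of its own, so p50 homodimers can occupy κB sites without activating them. Serine 80 is a residue of p50 that the study examined as a target of IKKβ.

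The edited position is shown first, because every S80A sample carries it. In GRCh38 the codon TCT lies on the plus strand of chromosome 4 at chr4:102537939-102537941, in exon 5 of NFKB1 (102537858 to 102537956). It is residue 81 of the 969-residue canonical protein and residue 80 in the name of the edit. Of the reference stretch chr4:102537919-102537971, capitals mark the codon and the complement of the PAM, the short motif that Cas9 requires beside its target. The second line gives the target of the guide on the minus strand (chr4:102537944-102537966), with the PAM in capitals.
NFKB1 reference: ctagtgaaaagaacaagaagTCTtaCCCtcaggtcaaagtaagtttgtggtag
guide target: acaaacttactttgacctgaGGG
The edit changes a codon and not the length of the transcript, so the NFKB1 mRNA level does not check the labels. A search of GRCh38 for the 20 bases of the target followed by NGG found 1 exact site, 0 sites with 1 mismatch, 2 with 2 and 14 with 3. Sites with 3 mismatches lay in 3 tested genes, PDE4DIP, LRBA and ASXL3, of which 0 were called. Their log2 fold changes of S80A over WT were -0.03 (SE 0.09), -0.02 (SE 0.16) and -0.04 (SE 0.18).

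The 6 untreated libraries held 15847479 to 20889577 counts. The first principal component of log2 CPM (counts scaled to library size), with 34.5% of the variance, placed all WT samples on one side and all S80A samples on the other. S80A n2 stood apart on the second component (18.97%), and its deviations from the group mean fell with the GC content of transcripts (r = -0.33 across genes), against r = 0.27 in S80A n1. The part of GC content in the results was not tested beyond a fit that corrects each library for it, whose counts are given with the other alternatives. Chi-square values per gene between samples of a group ran from 2.85 to 37.0, so no pair agreed within sampling noise. Of the markers of the line, PAX2, EYA1, NEFL, VIM, KRT18, INA and CDH2 were detected in all 6 samples, whereas NEFM was nearly absent from S80A cells. The blood markers PTPRC and CD3E had 0 counts in all 6 samples. PECAM1, ALB, DCN, COL1A2, ITGAM and CDH5 stayed at or below 2.07 normalised counts, counts scaled to a common library size. LUM was measured at 2.68 to 12.0 normalised counts and COL3A1 at 7.41 to 17.6. COL1A1, a fibroblast marker like these, lay far above such levels in all 6 samples. Its values are given with the matrix genes.

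At an adjusted p under 0.05, 295 genes were higher in S80A cells (2.05% of those tested) and 605 were lower (4.21%), 900 in all (6.26%). Of these, 71 higher genes (0.494%) and 128 lower genes (0.89%) differed by at least 2-fold. At 4-fold or more the counts were 15 and 50, and at 8-fold or more 2 and 28. The median log2 fold change was 0.64 among higher genes, -0.51 among lower genes and 0.01 over all genes tested. The groups did not overlap in 899 of the 900 called genes, against 3599 of all genes tested (25.02%). Most large differences in both directions lay at low and middle levels, with CA2, given under the other observations, as an exception. The lower genes of chromosome 17 formed a band of small differences, as described further on. Leaving out WT n2 left 100 higher and 256 lower genes, leaving out S80A n3 left 160 and 367, and leaving out S80A n2, the library that stood apart, left 401 and 638. With the 6 untreated samples alone, 450 of the 900 calls were kept, and 101 of 155 calls of named genes. The calls of 84 of the 157 called genes named by the rule in the methods held with any 1 of the 6 samples left out. For the others, the paragraph in which they appear gives the highest adjusted p of those fits, as "up to".

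**Figure D1:**
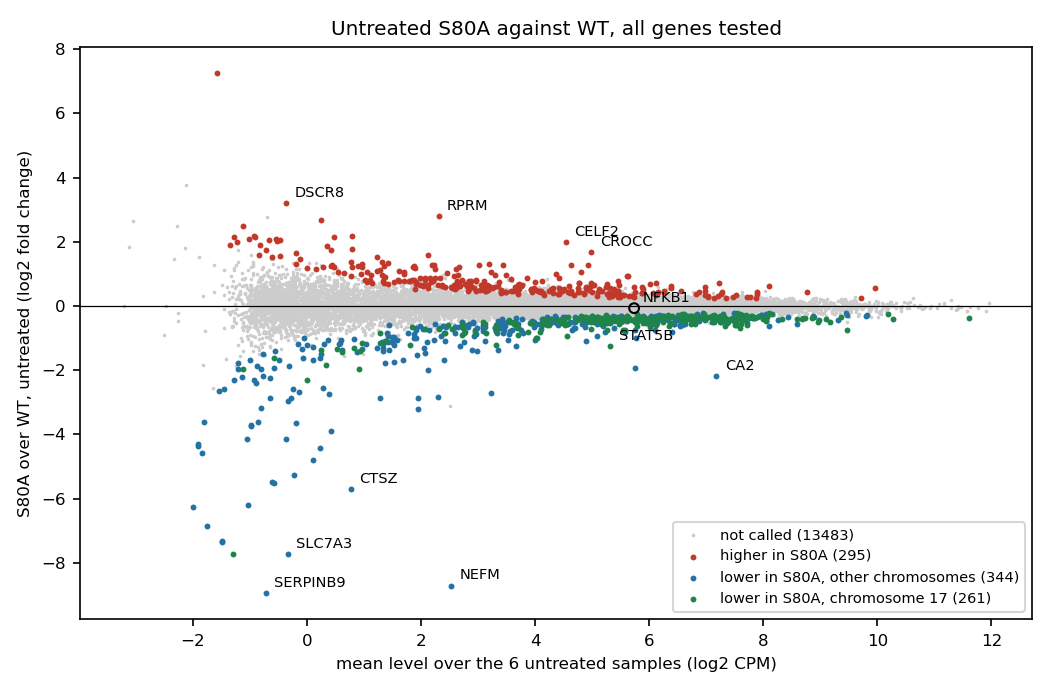
Each point is a gene, with its mean log2 CPM over the 6 untreated samples on the horizontal axis and the log2 fold change of S80A over WT on the vertical axis. The 295 higher genes are red, the 344 lower genes of other chromosomes blue and the 261 lower genes of chromosome 17 green, most of the latter lying close below 0 at high levels. NFKB1 is circled near 0.

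Normalised counts of NFKB1 were 1091, 999 and 948 in WT n1 to n3 and 1039, 863 and 993 in S80A n1 to n3, so that the groups overlapped. The log2 fold change was -0.07 (SE 0.10, adjusted p = 0.767). Of the 12 NF-κB subunits and IκB proteins, all tested, 0 were called in either direction by edgeR (1 at an unadjusted p under 0.05). Over all genes 6.26% were called, so 0 of 12 does not set this list apart. The log2 fold changes of its members ran from -0.16 to 0.25 with a median of -0.03. The member with the smallest unadjusted p was NFKBIA, which encodes IκBα, the inhibitor that NF-κB itself induces. It was measured at 453, 426 and 434 in WT and at 540, 551 and 475 in S80A samples. These values did not overlap, but the difference did not pass the adjustment (log2 fold change 0.25, SE 0.09, adjusted p = 0.143).

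The list of TNF receptor to IKK signalling also held IRAK genes and MYD88. Of its 31 tested genes 1 was higher and 0 were lower (3.23% called), with a median log2 fold change of 0.00. The higher gene was MYD88, the adaptor of Toll-like and interleukin-1 receptors and not of the TNF receptor. Its normalised counts were 83.9, 66.2 and 62.9 in WT and 182, 115 and 135 in S80A samples (log2 fold change 1.03, SE 0.21, adjusted p = 0.0108), and every S80A value lay above the highest WT value. The call was lost without WT n2 or WT n3 (adjusted p up to 0.062). Of 25 NF-κB target cytokines, chemokines and adhesion genes, 12 passed the filter and 0 were called (1 at an unadjusted p under 0.05). With 6.26% of all genes called, 0 of 12 does not set this list apart either. IL8 (CXCL8), a neutrophil chemokine, had at most 1.79 normalised counts in WT and 6.49, 2.4 and 3.47 in S80A samples. From these few counts the ratio was 6.48, with a 95% counting interval of 1.47 to 59.1, and the adjusted p was 0.141.

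The largest falls concerned genes that WT cells expressed and S80A cells nearly lacked. NEFM, the medium neurofilament subunit (chromosome 8), was measured at 1975, 1709 and 1830 normalised counts in WT and at 2.78, 7.21 and 3.47 in S80A samples. Its log2 fold change was -8.71 (SE 0.18, adjusted p = 5.52e-13), the smallest p of all genes tested. SERPINB9, an inhibitor of granzyme B, had 60.0, 72.5 and 51.6 in WT and 0 in every S80A sample, which makes it at least 63.2-fold lower against 3 counts over the group (adjusted p = 1.38e-06). The arginine and lysine transporter gene SLC7A3 had 127, 76.9 and 82.5 in WT and a total of 1 read in the S80A samples, a ratio of 290 with a 95% counting interval of 51.6 to 11490. Both groups of these genes were far apart in every sample.

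CTSZ encodes the lysosomal protease cathepsin Z. It had 200, 199 and 179 normalised counts in WT and 6.49, 2.4 and 1.74 in S80A samples (log2 fold change -5.70, SE 0.29, adjusted p = 2.77e-08). BCHE, the plasma cholinesterase, and LOC101060400 each had a total of 3 reads in the S80A samples, against 42.0 to 63.2 and 38.2 to 60.0 normalised counts in WT. Their WT over S80A ratios were 50.8 (95% counting interval 17.1 to 249) and 50.5 (16.9 to 248). The gene of the tight junction protein MARVELD2 fell from 84.7 ± 13.4 to 2.79 ± 1.38 (SD, n = 3, log2 fold change -4.80, SE 0.31). CPNE7, of the calcium-binding copines, fell from 83.6 ± 3.51 to 5.39 ± 1.56 (-3.89, SE 0.27). ESRP2, a splicing regulator of epithelial cells, fell from 217 ± 27.1 to 23.3 ± 12.1 (-3.20, SE 0.25). The zinc finger genes ZNF804A and ZNF462 had log2 fold changes of -3.66 (SE 0.43) and -2.86 (SE 0.44), and PHF11 fell by 2.97 (SE 0.37). The rule that picked these genes required groups that do not overlap, so their separation is no further result. All these calls held with any 1 sample left out. The count table also lists an alternate-locus copy of MARVELD2, and likewise of TMEM179, IRF7, PRAME and ZNF85, so the counts of these genes may be incomplete.

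Rises were smaller. RPRM, a cell cycle inhibitor induced by p53, had 42.4, 27.7 and 32.0 normalised counts in WT and 244, 231 and 231 in S80A samples (log2 fold change 2.79, SE 0.20, adjusted p = 1.47e-06). CELF2, an RNA-binding regulator of splicing on chromosome 10, had 210, 207 and 233 against 884, 778 and 916 (1.99, SE 0.13, adjusted p = 4.79e-07). CROCC, which encodes the ciliary rootlet protein rootletin, had 318, 332 and 329 against 1089, 1037 and 1026 (1.69, SE 0.08, adjusted p = 1.29e-08). CROCC has near-identical pseudogene copies on chromosome 1, so its count is uncertain. The S80A samples were tightly grouped for these genes, and lay above WT as the rule that picked them required.

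The long non-coding transcripts DSCR8 and LINC00470 rose from 3.76 ± 2.94 to 37.6 ± 7.55 and from 7.60 ± 1.16 to 48.7 ± 5.25 normalised counts (SD, n = 3), with log2 fold changes of 3.21 (SE 0.40) and 2.67 (SE 0.26). The ETS factor gene ETV5, which FGF and ERK signals induce, rose from 12.6 ± 4.37 to 42.6 ± 7.24 (1.73, SE 0.29). ISM1, a secreted protein gene, rose from 24.6 ± 6.16 to 70.4 ± 10.8 (1.54, SE 0.23). RYR2, the calcium release channel of heart muscle, had 29.0, 26.8 and 30.9 in WT and 102, 38.4 and 78.1 in S80A samples (1.36, SE 0.29). PNCK, a calmodulin-dependent kinase gene, and TMEM179 rose by 1.38 (SE 0.31) and 1.33 (SE 0.36) on the log2 scale. Without 1 sample the calls of RYR2 (up to 0.071, without WT n2), PNCK (up to 0.082 without WT n3, also lost without WT n1 or S80A n1) and TMEM179 (up to 0.16 without WT n3, also lost without WT n2 or S80A n1) were lost.

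**Figure D2:**
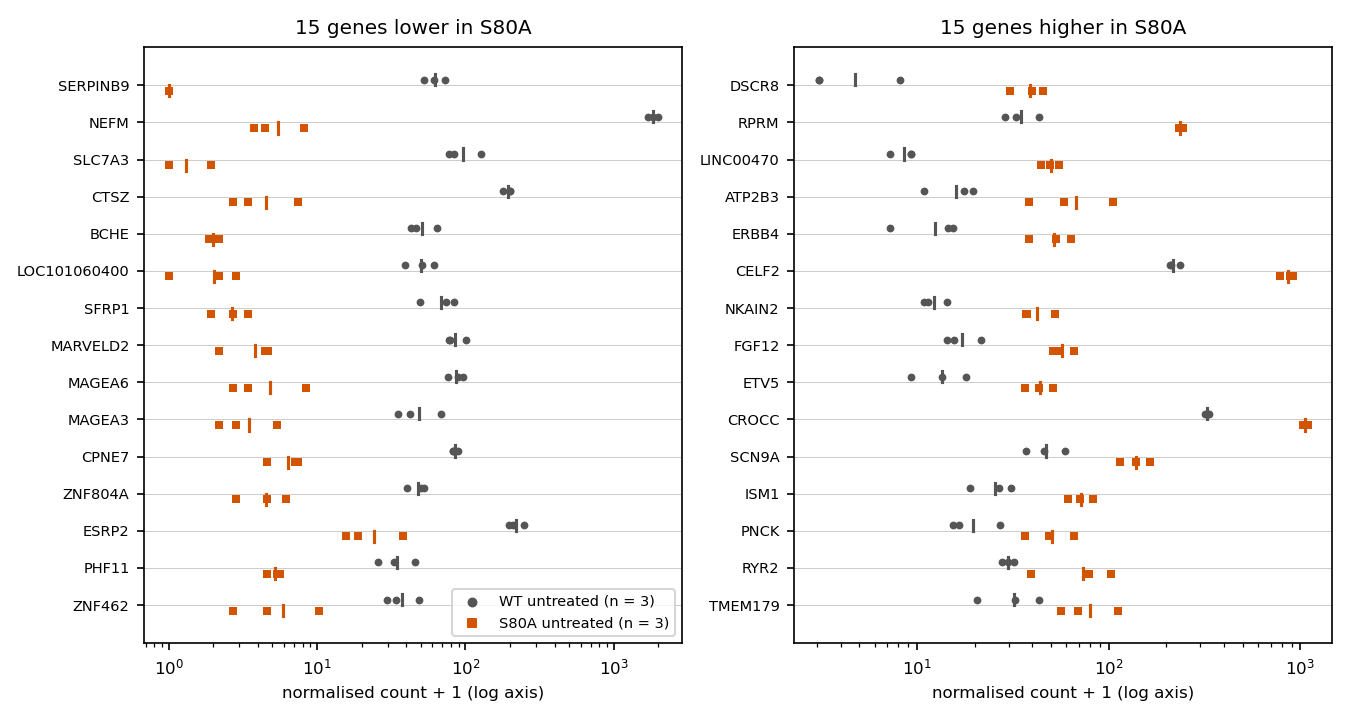
Normalised counts plus 1 on a log axis for the 15 genes with the largest falls (left) and the 15 with the largest rises (right), among called genes of at least 1 CPM with groups that do not overlap. Grey circles are the 3 WT samples, orange squares the 3 S80A samples and bars the group means, and SERPINB9 lies at 0 counts in every S80A sample.

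Interferon-stimulated genes and MHC class I genes gave 0 higher and 6 lower of 32 tested, with a median log2 fold change of -0.10 over the list. IRF7, the factor that amplifies type I interferon expression, had 30.02, 16.1 and 27.8 normalised counts in WT and 2.78, 1.2 and 3.47 in S80A samples (log2 fold change -3.17, SE 0.53, adjusted p = 0.00257). The neighbours IFITM2 and IFITM3, which encode membrane proteins that restrict virus entry, fell from 180 ± 20.3 to 83.6 ± 12.1 and from 65.8 ± 12.9 to 26.5 ± 3.78 (SD, n = 3). They are close paralogues, so reads may be split between them. IFIT1, an RNA sensor that blocks translation, had 121, 131 and 116 in WT and 55.6, 55.3 and 63.4 in S80A samples (-1.07, SE 0.14, adjusted p = 3.25e-04). IFIT5 fell by 0.54 (SE 0.09) and IFI35 fell by 1.37 (SE 0.35) on the log2 scale. IFIT1 and IFIT5 lie on chromosome 10 and IFI35 on chromosome 17, where many genes were lower. The call of IFI35 was lost in 5 of the 6 fits that left out 1 sample (up to 0.12, without S80A n3), and the other 5 calls held.

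Of the AP-1 and immediate early genes, 1 of 32 was higher and 2 were lower, with a median of 0.19. MYC was measured at 2689, 2696 and 2713 in WT and at 1963, 2057 and 2001 in S80A samples, a 1.34-fold fall that far exceeded the spread (log2 fold change -0.43, SE 0.06, adjusted p = 0.00125). DUSP2, a phosphatase of ERK, fell from 69.5 ± 9.28 to 28.6 ± 4.71 (-1.30, SE 0.26). JUND, an AP-1 subunit, rose from 687 ± 59.6 to 952 ± 64.9 (0.47, SE 0.11), a call lost without WT n1, WT n3, S80A n1 or S80A n3 (up to 0.087).

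Of 35 tested HOX genes, which set position along the body axis, 0 were higher and 2 were lower (5.71% called, against 6.26% of all genes), both in the HOXB cluster of chromosome 17. HOXB6 had 1028, 1149 and 1171 normalised counts in WT and 641, 622 and 735 in S80A samples (log2 fold change -0.74, SE 0.12), and HOXB13 fell by 0.35 (SE 0.09). Among 34 kidney developmental regulators 2 were higher and 1 was lower (8.82% called). TFAP2A, of the AP-2 factors, had 906, 867 and 890 in WT and 1249, 1356 and 1391 in S80A samples (0.59, SE 0.10). FOXD1, a factor of the kidney stroma, rose by 0.54 (SE 0.15) on the log2 scale, and the homeobox gene MSX1 had 623, 725 and 701 against 451, 438 and 411 (-0.66, SE 0.11). Of 46 neuronal transcription factors 2 were higher and 2 were lower (8.7% called). SOX9, a regulator of progenitors and cartilage on chromosome 17, had 431, 403 and 443 in WT and 217, 204 and 212 in S80A samples (-1.01, SE 0.09, adjusted p = 7.75e-06). EBF2 and OLIG2 gave log2 fold changes of 0.63 (SE 0.15) and -0.49 (SE 0.13). With 1 sample left out, the calls of HOXB13 (up to 0.11), FOXD1 (up to 0.17) and OLIG2 (up to 0.19) were each lost in 5 of the 6 fits and that of EBF2 in 3 (up to 0.10).

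Of 16 intermediate filament genes, which form the cytoskeleton that differs most between cell types, 2 were higher and 2 were lower. Beside NEFM, the keratin-like KRT222 of chromosome 17 was lower, with 44.5, 38.5 and 47.4 in WT and 16.7, 15.6 and 15.6 in S80A samples (log2 fold change -1.43, SE 0.20). INA, the internexin neurofilament partner, had 969, 882 and 901 in WT and 1574, 1267 and 1134 in S80A samples (0.53, SE 0.14), and KRT18, a keratin of simple epithelia, rose by 0.46 (SE 0.11). NEFL, the light neurofilament subunit and neighbour of NEFM, had 970, 779 and 849 against 1157, 1019 and 887, with overlapping groups and an adjusted p of 0.418. The calls of INA (lost in 4 of 6 fits, up to 0.15) and KRT18 (lost in 3, up to 0.0995) depended on single samples.

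Cadherins and non-clustered protocadherins gave 3 higher and 1 lower of 28. CDH2 (N-cadherin) had 1950, 2046 and 1973 in WT and 2674, 2708 and 2841 in S80A samples (log2 fold change 0.46, SE 0.07, adjusted p = 0.00206). CDH1 (E-cadherin) had 79.7, 101 and 106 in WT and 34.3, 46.9 and 61.6 in S80A samples (-1.0, SE 0.24, adjusted p = 0.0222). The N-cadherin level was therefore higher and the E-cadherin level lower in every S80A sample. FAT3, a giant protocadherin, rose from 109 ± 24.5 to 269 ± 73.0 (1.31, SE 0.24), and DSC3, a desmosomal cadherin, rose by 0.46 (SE 0.11). The call of CDH1 was lost without WT n2, WT n3 or S80A n1 (up to 0.097) and that of DSC3 in 4 of 6 fits (up to 0.11). Of 53 clustered protocadherins 4 passed the filter and 0 were called (2 at an unadjusted p under 0.05), with a median of -0.79. The smallest unadjusted p among them was that of PCDHGC4 (-0.90, SE 0.34, adjusted p = 0.151). Of 18 integrins 0 were called (2 at an unadjusted p under 0.05), and ITGA7 came closest (0.56, SE 0.19, adjusted p = 0.102), with overlapping groups.

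The matrix genes were among the lists with the most calls. Of 54 tested collagens, laminins and other matrix proteins 4 were higher and 13 were lower, 31.5% called in all against 6.26% of all genes. The list's median log2 fold change was -0.08, against 0.01 over all genes, and 25 of the 54 had an unadjusted p under 0.05. SPARC, a collagen-binding matrix protein, had 289, 224 and 208 normalised counts in WT and 47.3, 27.6 and 26.0 in S80A samples (log2 fold change -2.82, SE 0.22, adjusted p = 3.06e-06). FBN1, the microfibril protein fibrillin, had 393, 278 and 249 against 147, 90.1 and 118 (-1.36, SE 0.21). The collagen gene COL1A1 on chromosome 17 had 254, 280 and 296 against 108, 125 and 127 (-1.20, SE 0.12, adjusted p = 3.55e-05). The higher members were led by TNC, LAMA3 and MATN2, which encode tenascin, a laminin chain and a matrilin. Their log2 fold changes were 1.64 (SE 0.44), 0.72 (SE 0.17) and 0.74 (SE 0.20). In the fits without 1 sample the calls of TNC (up to 0.14) and MATN2 (up to 0.19) were lost in 5 of 6 and that of LAMA3 in 4 (up to 0.11), while the 3 lower genes named held.

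Of 29 matrix proteases and inhibitors 2 were higher and 4 were lower. Beside SERPINB9, an intracellular serpin of this list, SERPINF1, ADAMTS2 and TIMP2 fell by 0.72 (SE 0.18), 0.62 (SE 0.17) and 0.30 (SE 0.08) on the log2 scale. TIMP1, which inhibits metalloproteases, had 891, 782 and 763 in WT and 1342, 1281 and 1016 in S80A samples (0.58, SE 0.14). PLAT, the tissue plasminogen activator, had 548, 447 and 389 against 891, 624 and 765 (0.72, SE 0.17). Apart from SERPINB9 each of these calls was lost in 3 to 5 of the 6 fits, with adjusted p up to 0.18.

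Of 37 ligands and receptors of the FGF, EGF, PDGF and VEGF families, 5 were higher and 1 was lower, with a median log2 fold change of 0.22. ERBB4, a neuregulin receptor, had 6.21, 13.4 and 14.4 in WT and 51.9, 37.2 and 62.5 in S80A samples (2.15, SE 0.40, adjusted p = 0.00494). ERBB2, its partner receptor on chromosome 17, had 1302, 1309 and 1350 against 899, 895 and 976 (-0.52, SE 0.08). FGF12, an intracellular member of the FGF family, rose from 16.2 ± 3.86 to 56.0 ± 7.76 (1.77, SE 0.24). FGF9 and PDGFA rose by 0.82 (SE 0.22) and 0.87 (SE 0.23). EGF was at no more than 3.09 normalised counts in WT and at 25.9, 13.2 and 6.95 in S80A samples, a ratio of 5.86 with a 95% counting interval of 2.74 to 14.4. The calls of FGF9 (lost in all 6 fits, up to 0.13), EGF (in 4, up to 0.18) and PDGFA (in 3, up to 0.17) did not hold.

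In the TGFβ and BMP pathway 4 of 51 genes were higher and 0 were lower (7.84% called, near the 6.26% of all genes). The list's median log2 fold change was 0.12, and 0 of these calls were shared with treated cells. FST (follistatin, an activin antagonist), INHBB (an activin subunit), ACVR1C (a type I receptor) and SMAD6 (an inhibitory SMAD) gave 1.55 (SE 0.41), 0.92 (SE 0.26), 0.91 (SE 0.22) and 0.36 (SE 0.10). All 4 calls were lost in 4 or 5 of the 6 fits (up to 0.17). Of 13 Hedgehog genes 0 were called (1 at an unadjusted p under 0.05), and PTCH1 had the smallest unadjusted p (0.38, SE 0.17, adjusted p = 0.226).

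Of 43 WNT pathway genes 2 were higher and 6 were lower. SFRP1, a secreted antagonist of WNT, had 48.7, 82.3 and 73.2 in WT and a total of 5 reads in S80A samples, a WT over S80A ratio of 42.1 (95% counting interval 17.8 to 131). FZD10, a receptor, had 59.0, 64.4 and 79.4 against 32.4, 26.4 and 34.7 (-1.10, SE 0.19), and WNT10B, a ligand, had 127, 134 and 122 against 57.5, 81.7 and 77.3 (-0.83, SE 0.16). RNF43, a ubiquitin ligase that removes Frizzled receptors, rose from 54.3 ± 11.1 to 132 ± 35.2 (1.29, SE 0.23) and was 1 of only 3 called genes of chromosome 17 that were higher. WNT5B rose by 0.55 (SE 0.15), a call lost in 5 of 6 fits (up to 0.20).

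Of 24 Notch pathway genes 1 was higher and 1 was lower. DTX3, of the Deltex ubiquitin ligases, had 226, 161 and 192 in WT and 37.99, 14.4 and 25.2 in S80A samples (log2 fold change -2.85, SE 0.29, adjusted p = 4.63e-05). HEY2, a Notch target, rose by 0.42 (SE 0.11), a call lost in all 6 fits (up to 0.13). Guidance genes, which steer growing axons, gave 4 higher and 0 lower of 41 semaphorins, plexins, netrins and slits. PLXNA4, a semaphorin receptor, had 8.28, 5.37 and 3.09 in WT and 19.5, 19.2 and 30.4 in S80A samples (2.04, SE 0.35). SEMA3B, SEMA3D and SEMA6B rose by 0.82 (SE 0.21), 0.81 (SE 0.18) and 0.64 (SE 0.16), calls lost in 3 or 4 of the 6 fits (up to 0.14). Of 21 ephrins and Eph receptors 1 was higher, EPHA10 (1.14, SE 0.24, adjusted p = 0.0128), and 0 were lower. Its call was lost without WT n1 (up to 0.057).

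Of 39 voltage-gated channel genes 5 were higher and 0 were lower, with a median of 0.20. SCN9A, a sodium channel of sensory neurons, had 58.0, 44.7 and 36.1 in WT and 114, 138 and 162 in S80A samples (log2 fold change 1.58, SE 0.25, adjusted p = 0.00168). KCNH2, the hERG potassium channel, had 42.4, 59.9 and 62.9 against 139, 105 and 155 (1.28, SE 0.19). The pacemaker channel gene HCN2 rose from 131 ± 19.4 to 254 ± 35.6 (0.95, SE 0.13), CACNA2D3 by 0.74 (SE 0.15) and KCNB2 by 0.65 (SE 0.16). KCNB2 lost its call without WT n1, WT n2 or S80A n3 (up to 0.14).

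Of 18 ATPase ion pumps and partner proteins 4 were higher and 1 was lower. ATP2B3, a plasma membrane calcium pump, had 16.6, 9.84 and 18.6 in WT and 105, 37.2 and 57.3 in S80A samples (log2 fold change 2.18, SE 0.45). ATP2B4, another pump of that family, had 1102, 923 and 957 against 800, 454 and 602 (-0.68, SE 0.17). NKAIN2, which interacts with the sodium pump, rose from 11.2 ± 1.93 to 41.4 ± 8.87 (1.86, SE 0.26), and ATP1B1 and FXYD6, a subunit and a regulator of that pump, rose by 0.39 (SE 0.10) and 0.50 (SE 0.13). ATP2B3 lost its call without WT n2 (up to 0.066), and ATP2B4 (up to 0.12), ATP1B1 and FXYD6 (up to 0.14) in 5 of 6 fits.

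Neurotransmitter receptors and synaptic adhesion genes went both ways, with 4 higher and 5 lower of 42. The paralogous adhesion molecules NCAM1 and NCAM2 moved apart. NCAM1 had 342, 252 and 288 in WT and 585, 481 and 548 in S80A samples (log2 fold change 0.88, SE 0.11, adjusted p = 4.20e-04). NCAM2 had 23.8, 22.4 and 21.7 against a total of 5 reads, a WT over S80A ratio of 13.9 (95% counting interval 5.66 to 43.98). SLITRK3, a synaptic adhesion protein, had 129, 113 and 108 against 37.99, 38.4 and 44.3 (-1.53, SE 0.20). GABRA3, a GABA receptor subunit, had 2 reads in the S80A samples and a WT over S80A ratio of 14.6 (95% counting interval 3.68 to 126). GLRB, a glycine receptor subunit, rose by 0.65 (SE 0.13) and NRCAM by 0.55 (SE 0.15), the latter lost in 5 of 6 fits (up to 0.17).

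Of 38 genes of glycolysis and hypoxia 3 were higher and 6 were lower (23.7% called, against 6.26% of all genes), with a median of -0.06, and 4 of the 6 lay on chromosomes 10 and 17. PFKP, the platelet phosphofructokinase of chromosome 10, had 1518, 1404 and 1381 in WT and 803, 611 and 746 in S80A samples (log2 fold change -0.99, SE 0.11, adjusted p = 8.94e-05). ADM, the vasodilator adrenomedullin, had 87.0, 85.9 and 62.9 against 33.4, 39.6 and 19.1 (-1.38, SE 0.24), and the glucose transporter gene SLC2A3 fell by 1.02 (SE 0.24). ENO2, the neuronal enolase, had 381, 323 and 373 against 902, 687 and 662 (1.07, SE 0.12). PDK1 and EGLN1, both induced by hypoxia, rose by 0.45 (SE 0.10) and 0.43 (SE 0.12). The calls of SLC2A3 (up to 0.11), PDK1 (up to 0.082) and EGLN1 (up to 0.16) were lost in 3, 3 and 5 of the 6 fits.

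Cholesterol and fatty acid synthesis gave 3 higher and 4 lower of 39 (17.9% called). ACLY, which makes cytosolic acetyl-CoA, had 18040, 16920 and 15915 normalised counts in WT and 10952, 8962 and 10673 in S80A samples (log2 fold change -0.73, SE 0.08, adjusted p = 1.42e-04). SREBF1, the master regulator of fatty acid synthesis, had 1028, 989 and 958 against 684, 590 and 752 (-0.55, SE 0.09). Both lie on chromosome 17. FADS1, a desaturase, fell by 0.57 (SE 0.14). The sterol genes TM7SF2, HMGCS1 and SQLE rose by 0.43 (SE 0.09), 0.39 (SE 0.09) and 0.28 (SE 0.08). Without single samples FADS1 (lost in 4 fits), HMGCS1 (in 3) and SQLE (in 5) reached adjusted p up to 0.11, 0.10 and 0.15.

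Of 26 amino acid transporters 0 were higher and 2 were lower, SLC7A3 and SLC43A1 (-0.53, SE 0.15, lost in 5 fits, up to 0.17). Of 39 genes of ATF4 and the unfolded protein response 1 was lower, the mitochondrial serine enzyme SHMT2 (-0.23, SE 0.06, lost in 5 fits, up to 0.17). Among 30 sphingolipid and prostaglandin enzymes 1 was higher and 2 were lower. PLA2G4A, which releases arachidonic acid, had 540, 512 and 567 in WT and 360, 420 and 359 in S80A samples (-0.51, SE 0.10), and SGPL1, the sphingosine phosphate lyase of chromosome 10, fell by 0.40 (SE 0.08). SMPD1 rose by 0.42 (SE 0.11), a call lost in 5 fits (up to 0.15). Nuclear-encoded oxidative phosphorylation genes gave 0 higher and 1 lower of 76, and cytosolic ribosomal protein genes 0 and 1 of 77. Both called genes, ATP5G1 (-0.51, SE 0.12) and RPL19 (-0.40, SE 0.10), lie on chromosome 17, and both calls were lost in 4 fits (up to 0.095 and 0.12). Of 27 heat shock genes 2 were lower, HSPA2 (-1.44, SE 0.25) and HSPA14 of chromosome 10 (-0.36, SE 0.08, lost in 3 fits, up to 0.060). Of 26 NRF2 targets and metallothioneins 0 were called (2 at an unadjusted p under 0.05), and GSTO2 was closest (-0.92, SE 0.27, adjusted p = 0.063).

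Of 46 S phase genes 1 was higher, ATAD2 (log2 fold change 0.24, SE 0.07, lost in all 6 fits, up to 0.18), and 0 were lower. Of 54 genes of G2 and M phase 0 were higher and 2 were lower. TACC3, a spindle protein, had 4423, 4874 and 4797 in WT and 2748, 3650 and 3462 in S80A samples (-0.52, SE 0.12, lost in 3 fits, up to 0.098), and HN1 (JPT1) fell by 0.41 (SE 0.10, lost in 4, up to 0.10). The medians of both lists were 0.04 and 0.03.

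Of 31 p53 target genes 2 were higher and 4 were lower. HEK293T cells carry large T antigen, which binds p53. Beside RPRM, TP53INP1 was higher (log2 fold change 0.56, SE 0.15). EDA2R, an ectodysplasin receptor, had 68.3, 43.8 and 40.2 in WT and 13.0, 7.21 and 5.21 in S80A samples (-2.56, SE 0.35, adjusted p = 5.70e-04). FDXR, the adrenodoxin reductase of chromosome 17, had 544, 507 and 518 against 362, 341 and 339 (-0.59, SE 0.09). TP53I3 and XPC fell by 0.70 (SE 0.19) and 0.29 (SE 0.08). XPC lies on chromosome 3, inside the stretch described further on. Of 17 BCL2 family genes 2 were higher, the survival gene BCL2 (0.64, SE 0.14) and the pro-apoptotic BCL2L11 (0.30, SE 0.08), and 0 were lower. Calls were lost in all 6 fits for TP53INP1 (up to 0.15) and XPC (up to 0.17), in 5 for TP53I3 (up to 0.19), in 4 for BCL2L11 (up to 0.18) and in 3 for BCL2 (up to 0.094).

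Cancer-testis and germline genes, which are silent in most adult tissues, gave 0 higher and 4 lower of 12 tested (33.3%), with a median log2 fold change of -0.42. MAGEA6 had 75.6, 94.8 and 87.7 normalised counts in WT and 7.41, 2.4 and 1.74 in S80A samples (-4.42, SE 0.34, adjusted p = 2.74e-06). MAGEA3 had 34.2, 68.0 and 41.3 against 1.85, 1.2 and 4.34 (-4.15, SE 0.45). MAGEA3 and MAGEA6 are nearly identical, so reads may have been shared between them. MAGEB2 had 15.5, 25.05 and 35.1 against a total of 4 reads, a WT over S80A ratio of 19.3 (95% counting interval 7.25 to 72.7). PRAME, on chromosome 22, had 827, 936 and 842 against 436, 488 and 438 (-0.94, SE 0.09, adjusted p = 1.85e-05). All 4 calls held with any 1 sample left out.

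Among 55 chromatin writers and DNA methylation genes 1 was higher and 5 were lower, 4 of the 5 on chromosome 17. The exception was DNMT3B, a de novo DNA methyltransferase of chromosome 20, with 1077, 1071 and 1048 in WT and 820, 673 and 818 in S80A samples (log2 fold change -0.47, SE 0.09). CBX2, HDAC5 and EZH1 fell by 0.41 (SE 0.09), 0.36 (SE 0.10) and 0.35 (SE 0.10), and the Polycomb gene CBX7 rose by 0.47 (SE 0.11). CBX2 lost its call without WT n2 (up to 0.061), and HDAC5 (up to 0.20), EZH1 (up to 0.19) and CBX7 (up to 0.11) lost theirs in 4 to 6 fits. Of 29 histone genes 1 was higher, the linker histone H1F0 (0.44, SE 0.08), and 1 was lower, H2AFY2 (MACROH2A2) of chromosome 10, with 1960, 2118 and 2158 against 1034, 1301 and 1227 (-0.81, SE 0.11).

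Of 402 ZNF-numbered zinc finger genes, most of them repressors of repeats or of unknown target, 12 were higher and 8 were lower (4.98% called) with a median of 0.11. ZNF433 fell by 2.88 (SE 0.50) and ZNF492 by 1.86 (SE 0.45). ZNF85, ZNF502 and ZNF57 rose by 1.09 (SE 0.22), 0.86 (SE 0.20) and 0.83 (SE 0.11). ZNF492 (up to 0.12), ZNF502 (up to 0.082) and ZNF85 (up to 0.057, without WT n2) lost their calls in 4, 3 and 1 of the 6 fits. Of 21 imprinted genes 1 was lower, SGCE, with 193, 186 and 204 in WT and 117, 118 and 83.3 in S80A samples (-0.88, SE 0.15), and 0 were higher.

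Of 62 genes of the actin cytoskeleton and its regulators 2 were higher and 5 were lower, 4 of the 5 on chromosome 17. ACTG1, cytoplasmic γ-actin, had 63392, 67413 and 68515 in WT and 44988, 54717 and 53759 in S80A samples (log2 fold change -0.38, SE 0.09). RAC3, a small GTPase gene near it on that chromosome, had 3317, 3244 and 3389 against 2163, 2501 and 2390 (-0.50, SE 0.09), and CDC42EP2 of chromosome 11 fell by 0.41 (SE 0.10). RHOU had 428, 389 and 374 against 676, 662 and 601 (0.70, SE 0.10, adjusted p = 9.97e-04), and RND3 rose by 0.39 (SE 0.11). The calls of ACTG1 (up to 0.11), CDC42EP2 (up to 0.14) and RND3 (up to 0.13) were lost in 3, 4 and 5 fits. Of the 13 listed protein genes of the mitochondrial genome, 0 were found in the count table under the symbols searched. Of the 17 tested ribosomal and transfer RNA genes of that genome 0 were called by edgeR (0 at an unadjusted p under 0.05). Their median log2 fold change was 0.04.

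Chromosome 17 stood apart from the others. It held 818 of the genes tested (5.69%) and 261 of the 605 lower genes (43.1%), and 3 of the 295 higher genes. Its count of lower genes was 100 without WT n2, 124 without WT n3, 154 without S80A n3 and 129 with the 6 untreated samples alone, with a median log2 fold change between -0.32 and -0.28 in every alternative. Of its genes 91.1% had a log2 fold change below 0, against 43.3% of genes outside chromosomes 17 and 10. The median log2 fold change was -0.31, a ratio of 0.807, and the middle 80% of its genes lay between -0.57 and -0.02. Chromosome 10 was next, with 69 lower and 5 higher of 546 and a median of -0.19. Its lower genes numbered 20 without WT n2, 28 without WT n3, 35 without S80A n3, 36 without WT n1 and 25 with the 6 untreated samples alone, with a median between -0.20 and -0.16 in every alternative. On the other 21 chromosomes, the mitochondrial genome apart, medians ran from -0.06 to 0.13 and lower genes made up 0.994% to 4.45%. Outside chromosomes 17 and 10, 287 genes were higher (2.20%) and 275 were lower (2.11%), where the counts of both directions were nearly equal.

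The shift of chromosome 17 was present in each S80A sample. Relative to the genes outside chromosomes 17 and 10, the median over its genes was 0.00, 0.03 and 0.01 (log2, against the mean of all WT samples) in WT n1 to n3 and -0.30, -0.35 and -0.30 in S80A n1 to n3. The groups differed by -0.33, with SDs of 0.01 and 0.03 (n = 3, exact two-sided permutation p = 0.1, the smallest that 3 against 3 samples can give). Chromosomes 17 and 10 were picked by their low medians in these same samples, so their separation and its p are no further result. WT values lie near 0 because the mean of the WT samples is the reference. For chromosome 10 the values were -0.01 in each WT sample and -0.23, -0.19 and -0.21 in S80A samples, a difference of -0.20 (exact permutation p = 0.1). In TNFα-treated cells, whose 6 samples are others, the differences were -0.26 and -0.24. Within either chromosome no S80A sample overlapped with WT samples.

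The shift ran along the whole of chromosome 17. The running median over 51 neighbouring genes stayed between -0.44 and -0.21, with 643 of 768 windows at or beyond -0.25, from SMYD4 near one end to ASPSCR1 near the other. On chromosome 10 it lay between -0.31 and -0.06 and passed -0.25 in 27 windows, centred on genes from KIN to DCLRE1C (chr10:7750962-14897359 by gene start). Another stretch covered 22 windows on chromosome 3, centred on genes from FBLN2 to HACL1 (chr3:13549125-15560699 by gene start), with a lowest value of -0.28. In treated cells the same windows of chromosome 3 gave -0.34 to -0.25. Each window holds 51 genes, so the genes concerned reach beyond these centres. In bins of 5 Mb on chromosome 3, untreated medians were -0.24 at 10 to 15 Mb and -0.29 at 15 to 20 Mb. They were -0.05 at 20 to 25 Mb (9 genes) and -0.18 at 25 to 30 Mb (10 genes). At 30 to 35 Mb the median was -0.27, and at 35 to 40 Mb it was 0.19. In treated cells the medians from 20 to 40 Mb were -0.35, -0.32, -0.365 and 0.22, in the same order. No other chromosome had a window past 0.25 in either direction. DNA copy number was not measured, so what underlies these stretches was not tested.

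Within these regions some genes differed by far more than their neighbours. On chromosome 17 the smallest adjusted p belonged to STAT5B, a transcription factor of cytokine signalling, with 1169, 1147 and 1104 normalised counts in WT and 447, 481 and 508 in S80A samples (log2 fold change -1.25, SE 0.10, adjusted p = 2.46e-06), to SOX9 and to SLC16A5. SLC16A5, a monocarboxylate transporter, had 30.02, 24.2 and 24.8 in WT and 0 in every S80A sample, at least 26.7-fold lower. On chromosome 10 these were CELF2, which was higher, RASGEF1A, an exchange factor, with 401, 429 and 440 against 201, 189 and 218 (-1.06, SE 0.10), and PFKP. In the stretch of chromosome 3 they were MRPS25, ZFYVE20 and EAF1, which fell by 0.58 (SE 0.08), 0.45 (SE 0.07) and 0.42 (SE 0.07). The typical lower gene of chromosome 17 fell by 0.43 on the log2 scale (median), against 0.70 for lower genes outside chromosomes 17 and 10, and 18 of the 128 genes lower by at least 2-fold lay on chromosome 17.

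The same contrast in TNFα-treated cells was made on other samples of the same 2 genotypes, none of which entered the untreated contrast, though the spread was estimated from all 12 together. There 420 genes were higher (2.92%) and 638 were lower (4.44%) in S80A cells. Of the 295 genes higher in untreated cells, 291 had the same sign in treated cells and 160 were called, which is 54.2% of the untreated and 38.1% of the treated calls. Of the 605 lower genes, 603 had the same sign and 379 were called, 62.6% and 59.4%. The same-sign share over all genes tested was not computed. Chromosome medians were negative in untreated and treated cells on chromosomes 17 (-0.309 and -0.258) and 10 (-0.1886 and -0.2355). No gene was called in opposite directions. The test of the difference itself, genotype by TNFα, called 0 of 14383 genes with edgeR (smallest adjusted p = 0.911, 520 genes at an unadjusted p under 0.05), so no called difference was shown to depend on TNFα. This interaction was not fitted with another tool.

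The named genes had these values in the treated samples. NEFM had a log2 fold change of -9.05 (adjusted p = 4.30e-13), CTSZ -5.86, RPRM 3.11, CELF2 1.66, CROCC 1.90, SPARC -3.23, PRAME -0.88 and STAT5B -1.11. SERPINB9, at 0 in untreated S80A cells, remained lower in treated S80A cells (-4.93, SE 0.34, adjusted p = 3.64e-06). FST, higher in untreated cells, had -0.02 (adjusted p = 0.990) in treated cells. IL8, not called in untreated cells, was higher in treated S80A cells (2.06, adjusted p = 1.36e-04). NFKBIA was higher there by 0.39 (adjusted p = 0.0128).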

How the data were processed

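RNA from 12 HEK293T samples (4 groups of 3, by the labels) was sequenced as 75 bp single-end reads. According to the methods and processing notes, the authors aligned reads with HISAT to GRCh38 and counted them with HTSeq, and these raw counts per gene are the deposited values used here. Versions and the strand setting are not given in the sources used here. Of 33121 rows, 28 with symbols turned into dates were left out (at most 0.2334% of counts in samples with readable values). The deposited lists of TNFα comparisons were not used. Genes were kept by filterByExpr (minimum count 10), scaled by TMM and tested with edgeR 4.0.16 (R 4.3.3) by quasi-likelihood over all 12 samples, with Benjamini-Hochberg adjustment at 0.05. Log2 fold changes are S80A over WT. Normalised counts use the same scaling. Where a group had at most 3 counts in every sample, a bound against 3 counts over the group, or a ratio with an exact 95% interval for counting error only, stands in place of the fitted value.

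Named genes were NFKB1, then the 15 largest rises and falls among called genes of at least 1 CPM with groups that did not overlap. From each list all called members were named where 6 or fewer passed, otherwise the 3 largest in each direction, or the member with the smallest p where none passed. For chromosomes the 3 smallest adjusted p were taken. The members and lists were chosen with earlier results of these data known. The test was checked on simulated counts. A comparison of κB motifs in promoters was void, since fewer than 80% of tested genes had a promoter in the RefSeq table. Positions are from GRCh38. Some genes that the rule names are not reported here.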

Additional observations from a re-analysis of the deposited data

How the results depend on the processing

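The direction of the excess, more lower than higher genes, held in all 16 alternatives. In the main fit this excess lay on chromosomes 17 and 10, since 287 genes were higher and 275 lower outside them. DESeq2's test called 411 higher and 765 lower genes (885 of the 900 calls kept), and its size factors 304 and 600. Total counts gave 295 and 512, no filter 331 and 641, and at least 10 counts in every untreated sample 261 and 543. With only the 6 untreated samples, 146 genes were higher and 310 lower, 129 of them on chromosome 17 and 25 on chromosome 10. When calls also had to reach 1 on the log2 scale, the counts were 71, 128, 18 and 5, and 136 calls were shared with treated cells. With 1 sample left out, higher genes ranged from 100 to 401, lower genes from 256 to 638, calls shared with treated cells from 282 to 724, lower genes of chromosome 17 from 100 to 272 and of chromosome 10 from 20 to 87. The lowest counts came without WT n2, which kept 352 of the 900 calls, and the highest without S80A n2. The log2 fold change of NFKB1 ran from -0.12 without S80A n1 to 0.0081 without S80A n2 and was called in neither. The cause of these changes was not tested, beyond fewer samples.

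A GC correction of each library, chosen after seeing the data, gave 428 higher and 694 lower genes, 105 of the latter on chromosome 10. With the replicate block added it gave 615 higher and 902 lower genes, 137 on chromosome 10, and 1056 calls shared with treated cells. Deviations of same-numbered untreated samples correlated at 0.34 for n1, 0.06 for n2 and -0.09 for n3. These values do not settle whether replicate numbers paired the samples. A replicate block gave 433 higher and 799 lower genes and kept 898 of the 900 calls. The median log2 fold change stayed between -0.32 and -0.28 on chromosome 17 and between -0.20 and -0.16 on chromosome 10. Counts near the floor limit what can be said of genes with few reads.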

Other observations

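Outside the gene lists 45 genes differed by at least 4-fold, 10 higher and 35 lower. Those named in this section were chosen after their values were seen. CA2, the cytosolic carbonic anhydrase, was the most abundant of those described here, with 4990, 6212 and 6062 normalised counts in WT and 1131, 1482 and 1188 in S80A samples (log2 fold change -2.19, SE 0.11, adjusted p = 2.77e-08). SNAI2, a repressor of E-cadherin in epithelial to mesenchymal change, had 497, 437 and 403 in WT and 91.7, 55.3 and 54.7 in S80A samples (-2.72, SE 0.22). E-cadherin itself was also lower in S80A samples, as given above. IKBKE, a kinase related to the IKK kinases that acts in interferon induction, had 75.6, 50.1 and 58.8 against 17.6, 4.8 and 4.34 (-2.73, SE 0.43, adjusted p = 0.00181). ITPKB, an inositol phosphate kinase gene, had 166, 170 and 152 against 32.4, 28.8 and 57.3 (-2.01, SE 0.20).

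Several genes had 0 counts in every sample of a genotype. GSPT2, a translation termination factor, was at least 20.7-fold lower in S80A cells, IGFBPL1 at least 20.4-fold, HAAO at least 14.7-fold and NR2E1 at least 9.70-fold. In the other direction LOC102724621 had 0 counts in every WT sample and 27.8, 9.61 and 18.2 normalised counts in S80A samples, at least 19.6-fold higher.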
